A study of Mus musculus with 6 samples.

Results

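The nuclear receptors REV-ERB alpha and beta (genes Nr1d1 and Nr1d2) and ROR alpha and beta (Rora and Rorb) were examined in aortic arches of mice whose bone marrow either lacked or carried the microRNA gene Mir21. Every probe on the array that carried one of these 4 gene names and was not a control was taken, whatever its signal. The 4 genes, of 34821 gene names on the array, had 7 of 55681 probes, of which Nr1d1 had 1 and Nr1d2, Rora and Rorb had 2 each. All 7 were among the 38342 probes tested, and 6 were well above background on every array. The arches came from female mice, strain label C57BL/6, 1 mouse per array. The BM_Mir21_KO group comprised 3 mice that received marrow from Mir21–/– donors, and the BM_Mir21_WT group 3 mice that received Mir21+/+ marrow. All recipients were themselves Mir21+/+, had been given X-rays over the whole body in 2 fractions of 5 Gy within 4 h, and ate a high-fat diet for 12 weeks that began 3 weeks after irradiation. Cells of the recipients' own vessel wall therefore kept Mir21 in both groups, and only marrow-derived cells differed by design. Age and the hour at which tissue was collected are not given in the sources used here. Clock transcripts vary with the hour of day, so each clock-gene difference below is between arches whose collection hours are not known here, and the part of the hour was not tested.

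REV-ERBs and RORs bind the same short DNA element, the ROR response element or RORE. REV-ERBs are haem-binding repressors that recruit the NCoR corepressor with the histone deacetylase Hdac3, whereas RORs activate from the same sites. The opposing pair drives the daily rhythm of Bmal1 (listed here as Arntl), whose protein acts with Clock or Npas2 on E-boxes and thereby switches on Nr1d1 and Nr1d2 themselves, the Per and Cry repressors and the output factor Dbp. In muscle, fat and vessel wall this loop sets when metabolic and inflammatory genes are used. Nr1d1 and Nr1d2 overlap in function, Rora is broadly expressed, and Rorb is known mainly from brain and retina.

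The promoter windows of the 2 REV-ERB genes and of 2 of their clock targets, Arntl and Nfil3, are shown. Of the RORE-driven clock genes below, these 2 were the ones with the longer RORE half-site TAGGTCA in a window. Npas2, whose window held no half-site, is not shown. They are RefSeq sequences on GRCm38.p6, 300 bases long, running from 250 bases before to 50 bases after the annotated start, 5′ to 3′ on the gene's strand. Capitals mark, on either strand, the RORE half-site AGGTCA, the E-box CACGTG and the E-prime box CACGTT.
Nr1d1, chr11:98775328-98775627, minus strand: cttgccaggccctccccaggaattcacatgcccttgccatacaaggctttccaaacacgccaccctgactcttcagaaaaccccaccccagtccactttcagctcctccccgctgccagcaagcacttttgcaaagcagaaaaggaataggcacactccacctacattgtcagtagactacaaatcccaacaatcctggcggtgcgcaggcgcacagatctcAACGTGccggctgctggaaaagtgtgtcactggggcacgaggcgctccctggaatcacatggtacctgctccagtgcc
Nr1d2, chr14:18239057-18239356, minus strand: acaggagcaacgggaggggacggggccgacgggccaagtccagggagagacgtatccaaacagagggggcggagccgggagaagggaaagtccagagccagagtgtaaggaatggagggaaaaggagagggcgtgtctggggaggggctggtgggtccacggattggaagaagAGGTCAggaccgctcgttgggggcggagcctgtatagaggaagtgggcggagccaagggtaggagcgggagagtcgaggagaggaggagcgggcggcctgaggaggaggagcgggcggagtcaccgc
Arntl, chr7:113207261-113207560, plus strand: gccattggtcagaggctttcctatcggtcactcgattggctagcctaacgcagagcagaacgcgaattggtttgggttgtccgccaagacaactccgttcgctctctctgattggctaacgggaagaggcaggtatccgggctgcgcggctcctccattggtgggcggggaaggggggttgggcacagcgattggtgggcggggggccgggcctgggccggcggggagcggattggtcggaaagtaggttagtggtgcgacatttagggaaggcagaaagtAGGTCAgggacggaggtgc
Nfil3, chr13:52980990-52981289, minus strand: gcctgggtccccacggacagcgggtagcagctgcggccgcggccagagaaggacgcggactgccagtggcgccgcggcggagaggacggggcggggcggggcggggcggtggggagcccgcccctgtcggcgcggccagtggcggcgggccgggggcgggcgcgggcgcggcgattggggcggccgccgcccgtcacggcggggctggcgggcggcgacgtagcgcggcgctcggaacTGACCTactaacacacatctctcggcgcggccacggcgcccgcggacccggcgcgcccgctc
The Nr1d1 window held 1 E-prime box, beginning at position -28 from the start and read on the opposite strand. The Nr1d2 window held 1 half-site, beginning at position -77. Arntl has 2 overlapping windows, and the one shown, from the second start, is the only one with a match. Its half-site lay 32 bases after the start and was preceded by T, so that it also matched the longer form TAGGTCA. The Nfil3 window held the same longer form on the opposite strand, beginning at position -12. Among the 32851 promoter windows in the table, 16.3% held AGGTCA, 2.61% TAGGTCA, 7.15% CACGTG and 4.68% CACGTT, each counted on both strands, with every TAGGTCA counted as AGGTCA too. The D-box TTANGTAA, found in 2.32% of windows, and the paired element RevDR2, found in 0.00913%, matched neither REV-ERB window. The Rora window held none of these motifs, and 1 of 2 Rorb windows held an E-prime box and a D-box. These are matches of letters in a short window and not binding sites.

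The 3 REV-ERB probes were lower on every array with Mir21 KO marrow than on every array with Mir21 WT marrow. Levels are log2 signals relative to each array's 75th percentile, and differences are KO minus WT. Nr1d1 stood at 1.05, -1.63 and 0.72 in the 3 KO arches, against 1.63, 2.07 and 1.68 in the 3 WT arches. KO replicate 2 was far below the other KO arches, and the closest KO and WT values were 0.58 apart. The mean was 0.05 ± 1.46 in KO arches and 1.79 ± 0.24 in WT arches (SD, n = 3 each), a 3.36-fold lower level whose 95% limits ran from 1.19 to 9.47 fold. The Nr1d1 difference of -1.75 ± 0.64 (SE) did not pass the test across all probes (limma, adjusted p = 0.54; unadjusted p = 0.028, rank 1975).

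Nr1d2 was lower by a larger margin than its spread on both probes. Its brighter probe read 1.17, -0.72 and 1.63 in KO arches, against 3.07, 3.25 and 3.06 in WT arches. Its dimmer probe read 0.08, -1.55 and 0.42 in KO arches, against 1.88, 1.92 and 1.91 in WT arches. On both, KO replicate 2 was again lowest, and the gap between the highest KO and the lowest WT value was 1.43 on the brighter probe and 1.47 on the dimmer one. The brighter probe was 5.40-fold lower in KO arches (95% limits 2.24 to 13.0) and the dimmer one 4.76-fold lower (2.24 to 10.1). The differences were -2.43 ± 0.54 and -2.25 ± 0.47, and neither passed the test (limma, adjusted p = 0.39 for each; unadjusted p = 0.0025 and 0.0016). By size these were the 46th and 66th largest differences of the 38342 tested, and Nr1d1 was the 180th.

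Across the 7 probes, 0 passed limma's adjusted test, which 1 of all tested probes passed (0.00261%). At an unadjusted p under 0.05, 3 of 7 were lower with KO marrow, against 4.27% of all tested probes, and 0 were higher, against 4.44%. In 3 of 7 all KO arches lay below all WT arches, which held for 6.14% of tested probes, and in 0 of 7 did they lie above, which held for 7.58%. All 3 were REV-ERB probes and stand for 2 genes. The median difference of the 7 was -0.25, and that of all tested probes 0.02.

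**Figure D1:**
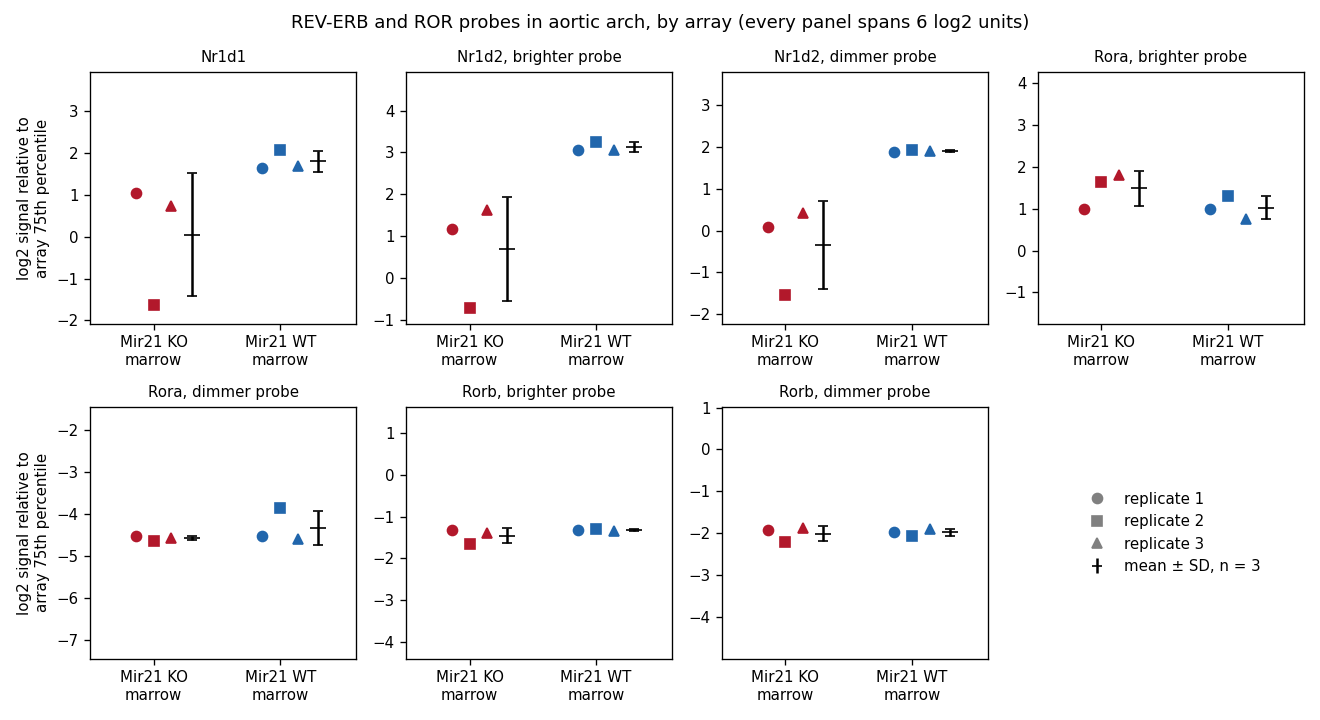
Level of each of the 7 probes (log2 signal relative to the array's 75th percentile) on each array, with KO marrow left of WT marrow and bars for group means and SD. The 3 REV-ERB probes separate the groups, with KO replicate 2 lowest, while the groups overlap for Rora and Rorb.

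KO arches varied more than WT arches on all 3 REV-ERB probes. Between the highest and lowest arch, Nr1d1 ranged 6.40-fold with KO marrow and 1.35-fold with WT marrow. The brighter Nr1d2 probe ranged 5.07-fold with KO marrow and 1.15-fold with WT marrow, and the dimmer probe 3.91-fold and 1.02-fold. The dimmer probe's SD over WT arches, 0.02, was smaller than that of all but 0.801% of tested probes, whereas the Nr1d1 SD over KO arches exceeded that of 99.0% of them. Set against the WT mean, Nr1d1 was 1.68-, 10.73- and 2.11-fold lower in KO replicates 1, 2 and 3. The brighter Nr1d2 probe was 3.88-, 14.3- and 2.83-fold lower in the same 3 arches, and the dimmer one 3.53-, 10.9- and 2.80-fold lower. Much of the size of the difference came from KO replicate 2: without it Nr1d1 differed by -0.91 and Nr1d2 by -1.73 and -1.65.

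The probes of 1 gene were checked against each other and against their mm9 positions in the files. The Nr1d1 probe is listed on chromosome 11, from 98630526 to 98631028 on the minus strand, a span of 503 bases for 60 bases of probe. Of its 3 forward reading frames 1 has no stop.
Nr1d1 probe: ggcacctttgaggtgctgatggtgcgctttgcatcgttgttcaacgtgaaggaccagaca
The dimmer Nr1d2 probe is listed on chromosome 14, from 19037253 to 19037312, where RefSeq also has the gene. The brighter one carries the same gene name but is listed on chromosome 19, from 40271435 to 40271494, and its true origin was not tested. Its reading exceeded that of the dimmer probe by 0.83 to 1.34 on the 6 arrays, and the order of the KO arches was the same on both. The brighter Rora probe lies on chromosome 9, from 69226774 to 69226833, 714939 bases from the dimmer one, which starts at 68511835 and ends at 68511894. The Rorb probes lie on chromosome 19, the brighter from 19006883 to 19006942 and the dimmer from 19012149 to 19012208. Whether these positions fall in exons or untranslated regions was not analysed here.

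The activators did not separate the groups. Rora, read by its brighter probe, stood at 1.0, 1.64 and 1.81 in KO arches, against 1.0, 1.30 and 0.76 in WT arches. KO replicate 1 sat at the WT mean and KO replicates 2 and 3 above every WT arch. The difference of 0.46 ± 0.26 had 95% limits of -0.13 and 1.06 (limma, adjusted p = 0.65), which leave room for a level up to 2.08-fold higher with KO marrow. The dimmer Rora probe, well above background on 2 of 3 KO and 3 of 3 WT arches, stood at -4.53, -4.63 and -4.56 in KO arches, against -4.53, -3.85 and -4.58 in WT arches. It differed by -0.25 ± 0.22, with the sign opposite to the brighter probe, and WT replicate 2 alone stood apart.

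Rorb, read by its brighter probe, stood at -1.33, -1.67 and -1.39 in KO arches, against -1.32, -1.30 and -1.34 in WT arches. Its dimmer probe stood at -1.93, -2.21 and -1.89 in KO arches, against -1.97, -2.07 and -1.89 in WT arches. The groups overlapped on both probes, KO replicate 2 being lowest. The differences were -0.14 ± 0.16 (95% limits -0.51 and 0.23) and -0.03 ± 0.16 (95% limits -0.41 and 0.35; limma, adjusted p = 0.82 and 0.97). The Nr1d2 limits, at most -1.16, lie outside the limits of every Rora and Rorb probe; the difference between genes was not itself tested.

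**Figure D2:**
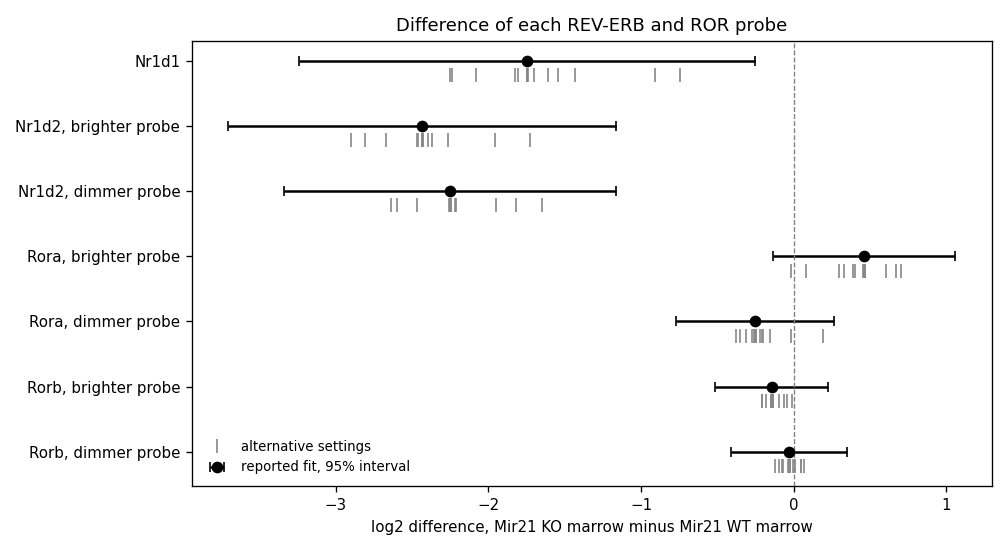
KO minus WT difference of each probe (log2) with its 95% limits from limma. The limits of the 3 REV-ERB probes lie below 0 and those of the 4 ROR probes include 0. Without moderation of the variance, Nr1d1 had an unadjusted p of 0.11 (limma's least-squares fit alone).

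The arches also differed in adipocyte markers. In bulk tissue, fewer cells of a type and less RNA per cell cannot be told apart. Summed relative signal of 10 white adipocyte markers ran from 55.5 to 622 in KO arches and from 335 to 700 in WT arches, and that of 10 brown adipocyte markers from 58.4 to 929 and from 437 to 876. All 20 were well above background on every array. On average over the white markers, KO replicates 1, 2 and 3 deviated from the WT mean by 0.51, -1.85 and -3.00, and over the brown markers by 0.49, -2.14 and -3.28. On average these markers were thus above the WT mean in KO replicate 1 and far below it in KO replicates 2 and 3. In each list, 9 of 10 markers had a difference below 0, while Lep (0.60) and Dio2 (0.13) went the other way. In KO replicate 1, Elovl3 stood at 1.01 against a WT mean of 1.74, and Fabp4, Nnat and Zic1 were below their WT means by less. Fabp4 alone made up 51.8% to 63.6% of the white sum.

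In KO replicate 1 the averages of these markers exceeded the WT mean. That arch had Nr1d1 at -0.75 and Nr1d2 at -1.96 and -1.82 from their WT means. KO replicate 3, lowest in adipocyte markers, stood at -1.50 and -1.48 on the Nr1d2 probes, and KO replicate 2 at -3.84 and -3.45. With the adipocyte marker mean of each array as a covariate, Nr1d2 differed by -2.43 and -2.21 (unadjusted limma p under 0.05 for each) and Nr1d1 by -1.43 (limma, unadjusted p = 0.135). Rora was high on the 2 KO arches low in adipocyte markers, and its difference with the covariate was 0.08. The part of adipocytes in these differences was not tested further.

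Other cell types were checked in the same way. Smooth muscle markers, the arch's main wall cell, summed to between 1954 and 3014 in KO arches and between 1801 and 2226 in WT arches, with 8 of 8 well above background on all arrays. Macrophage markers, of a marrow-derived cell type, summed to between 149 and 179 in KO arches and between 103 and 136 in WT arches. Itgam alone, however, made up 65.3% to 85.8% of each sum. Without Itgam the sums overlapped, at 25.3 to 52.3 in KO arches and 26.03 to 34.3 in WT arches. KO replicate 2, lowest in REV-ERBs, had the highest mean macrophage deviation, at 1.02, against 0.17 and -0.02 in KO replicates 1 and 3. Immature thymocyte markers, which ordered the KO arches as Nr1d1 did, deviated by 0.06, -1.42 and -0.74 in the 3 KO arches and by at most 0.05 in either direction in WT arches; 4 of 8 were well above background on all arrays. Endothelial markers summed to between 43.2 and 62.5 in KO arches and between 52.4 and 69.8 in WT arches, with Vwf making up 27.4% to 51.5%. Without Vwf the sums did not overlap, at 30.3 to 31.4 in KO arches and 33.9 to 36.5 in WT arches. The KO minus WT difference was below 0 for 7 of the 8 endothelial markers, and lowest for Cdh5 (-1.09). Their median was -0.18, against 0.02 for all tested probes. At an unadjusted limma p under 0.05, 1 of the 8 was lower and 0 higher, against 4.27% and 4.44% of all tested probes. Cardiac muscle markers summed to between 11.6 and 49.2 in KO arches and between 10.2 and 18.8 in WT arches. Skeletal muscle markers summed to between 34.4 and 53.2 in KO arches and between 36.1 and 59.9 in WT arches. Acta1 alone made up 57.0% to 98.1% of the skeletal muscle sum. Without Acta1 the sums were uneven, at 1.71 to 4.01 in KO arches and 0.70 to 25.8 in WT arches. In WT replicate 1, Myh2 stood at 3.49, against -2.55 and -1.73 in WT replicates 2 and 3. Myh1 stood at 2.37 there, against -3.73 and -2.44. Neuron and Schwann cell markers summed to between 87.6 and 122 in KO arches and between 61.8 and 94.5 in WT arches, of which Snap25 made up 93.8% to 97.1%, and without it to between 3.13 and 3.97 in KO arches and between 3.39 and 4.43 in WT arches. The median difference of that list was -0.10. The part of these cells in the REV-ERB difference was not tested.

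**Figure D3:**
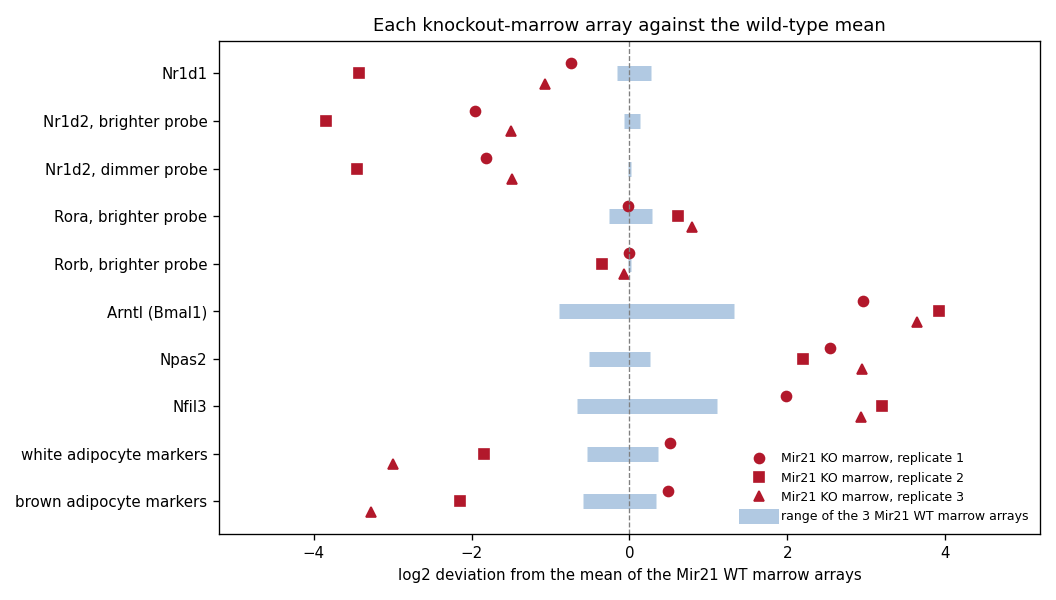
Deviation of each KO array from the mean of the WT arrays (log2) for REV-ERB, ROR and target genes and for the mean of adipocyte marker lists, with the range of the 3 WT arrays shaded. REV-ERBs are below and Arntl, Npas2 and Nfil3 above the WT range on all 3 KO arrays, whereas adipocyte markers are below it on KO replicates 2 and 3 and above it on KO replicate 1.

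Of 5 clock genes driven through ROREs, 4 were tested. At an unadjusted p under 0.05, 3 were higher with KO marrow and 0 lower, against 4.44% and 4.27% of all tested probes. Limma's adjusted test was passed by 0. Cry1 was not tested. The median difference was 2.64. Arntl, which encodes the activator Bmal1, stood at 1.11, 2.08 and 1.80 in KO arches, against -0.51, -2.28 and -2.74 in WT arches, an 11.4-fold higher mean (limma, adjusted p = 0.36), or a difference of 3.51 that was 2.87 with normexp background correction. Npas2, a partner of Bmal1, stood at -1.54, -1.88 and -1.13 in KO arches, against -3.83, -3.82 and -4.59 in WT arches, 5.91-fold higher (limma, adjusted p = 0.18). That difference of 2.56 was 1.33 with normexp background correction. Nfil3, a repressor of D-box genes, stood at 2.51, 3.72 and 3.46 in KO arches, against 1.63, -0.14 and 0.07 in WT arches, 6.54-fold higher (limma, adjusted p = 0.36).

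All KO arches lay above all WT arches for these 3 genes, which held for 7.58% of all tested probes. KO replicate 2, lowest for the REV-ERBs, was highest for Arntl and Nfil3 but lowest of the KO arches for Npas2. Clock, the other partner of Bmal1, differed by 0.47 ± 0.28 (limma, adjusted p = 0.66), and its groups overlapped. All 5 genes had promoter windows. In at least 1 window, 3 of the 5 held AGGTCA and 2 TAGGTCA, and Npas2 held neither. Clock has 3 windows and Arntl 2, so these counts by gene are not on the per-window scale of the shares given above.

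E-box-driven clock genes form the group to which the REV-ERBs themselves belong. At an unadjusted p under 0.05, 9 of 10 were lower with KO marrow and 0 higher, against 4.27% and 4.44% of all tested probes. Their median difference was -1.45. All 3 KO arches lay below all 3 WT arches in 9 of 10, against 6.14% of all tested probes. Of the 10 genes, 9 were well above background on all arrays. The other, Ciart, passed the filter only through its WT signal, which in part fixes its place in both counts. These counts take each gene's brightest probe, and second probes differed by -0.01 for Per1 (-1.07 on the brightest), -0.20 for Cry2 (-0.63) and -4.32 for Dbp. Dbp, an output factor acting on D-boxes, stood at 2.14, 0.73 and 2.99 in KO arches, against 5.51, 6.69 and 6.22 in WT arches, a difference of -4.19 ± 0.56 (limma, adjusted p = 0.33). Its relative Tef differed by -1.93 ± 0.22 and the repressor Bhlhe40 by -1.84 ± 0.26. Per2, a core repressor, stood at -2.16, -0.72 and -1.12 in KO arches, against -0.14, -0.08 and 0.02 in WT arches. Unlike the REV-ERBs and Dbp, it was lowest in KO replicate 1. Ciart, a clock repressor listed as Gm129, was the only gene of all that passed the adjusted test: it was not well above background on any KO array and at least 16.8-fold lower there on the software's background-subtracted signal (limma, adjusted p = 0.00024). With normexp background correction its difference was smaller than that bound, at -1.95 (limma, adjusted p = 0.021). Bhlhe41 differed by -0.44 ± 0.34 on its brightest probe, or by -0.08 without WT replicate 2, and by -1.83 on its second probe. The E-box CACGTG was found in at least 1 window of 4 of the 8 genes of this list that had windows. Per1 and Tef have 2 windows each, so this count by gene is not on the per-window scale of the share given above.

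**Figure D4:**
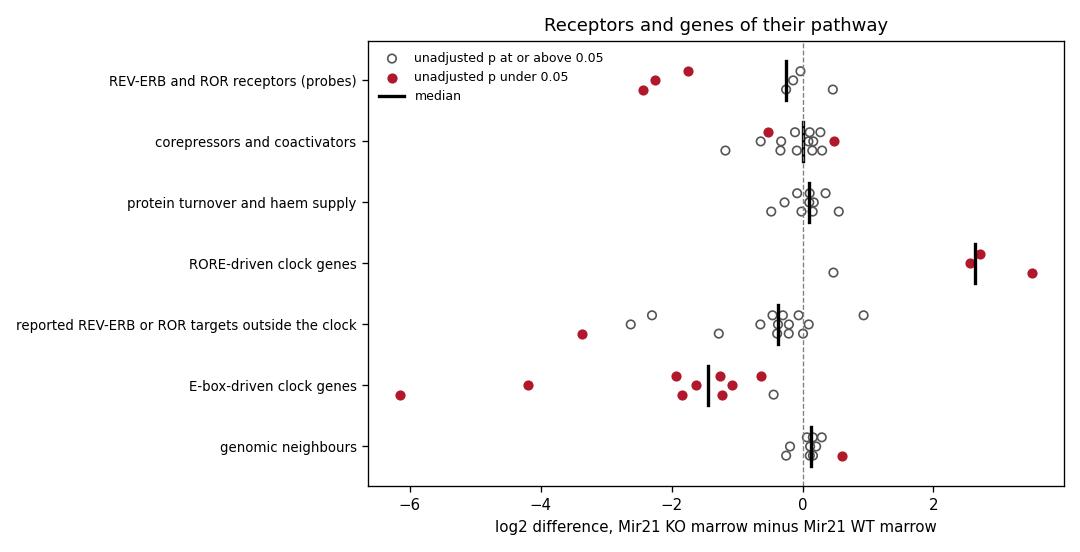
KO minus WT difference (log2) of the 7 receptor probes and of each tested gene in the 6 pathway lists, filled at an unadjusted limma p under 0.05, with a bar at each median; the leftmost point, Ciart, is a fitted value with only a bound in KO arches. RORE-driven clock genes lie above 0, E-box-driven clock genes lie below 0, and the medians of the remaining lists run from -0.37 to 0.14.

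Reported REV-ERB or ROR targets outside the clock were close to the background share: of 15 tested, 1 was lower and 0 higher at an unadjusted p under 0.05, against 4.27% and 4.44% of all tested probes, with a median of -0.37. Il6 and Fgf21 were not tested. The 1 lower gene, Elovl3, a fatty acid elongase of brown fat, stood at 1.01, -2.08 and -3.81 in KO arches, against 1.52, 1.07 and 2.64 in WT arches. Its difference of -3.37 was -1.35 with the adipocyte covariate and -0.74 with KO replicate 1 as the only KO arch. Elovl3 is itself part of that covariate, which in part fixes the value of -1.35. Pck1, a gluconeogenic enzyme also active in fat, differed by -2.62 ± 1.50, and Ucp1, which uncouples brown fat mitochondria, by -2.30 ± 1.03. All 3 are also among the adipocyte markers above and were lowest in KO replicate 3, whose adipocyte marker averages were lowest.

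Of 14 corepressors and coactivators, 1 was lower and 1 higher at an unadjusted p under 0.05, against 4.27% and 4.44% of all tested probes. Their median was 0.00. Hdac3, the deacetylase of the NCoR complex, stood at -0.38, -0.68 and -0.39 in KO arches, against -0.24, 0.25 and 0.12 in WT arches, a difference of -0.53 ± 0.19 (limma, adjusted p = 0.53). The acetyltransferase Crebbp differed by 0.48 ± 0.18 on its brighter probe and by -0.01 on its second one. Ncor1, the corepressor itself, differed by 0.30 ± 0.15 on the brightest of its 4 tested probes and by -0.24 to 0.32 on the others. Ppargc1a and Ppargc1b, ROR coactivators of mitochondrial genes, differed by -0.64 ± 0.85 and -1.18 ± 0.79 with KO arches on both sides of the WT arches. Of 10 genes of REV-ERB protein turnover and haem supply, 0 were lower and 0 higher at an unadjusted p under 0.05. Hmox1, which degrades haem, stood at 0.69, 3.37 and 0.19 in KO arches, against 1.25, 0.64 and 0.70 in WT arches, on its brighter probe. On that probe it was high in KO replicate 2 alone and differed by 0.55 ± 0.75. Its second probe differed by -0.21. Alas1, which starts haem synthesis, differed by -0.48 ± 0.50.

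Genes beside the receptors were taken as a check on position. Thra, which encodes a thyroid hormone receptor from the strand opposite Nr1d1 and overlaps it in RefSeq, stood at 4.49, 4.66 and 4.80 in KO arches, against 3.94, 4.15 and 4.05 in WT arches. It was 1.52-fold higher (difference 0.60 ± 0.16; limma, adjusted p = 0.44). A second Thra probe differed by 1.05 ± 0.17 (limma, adjusted p = 0.36), and all KO arches lay above all WT arches on both. By brightest probes, Thra was the 1 of 10 tested neighbours past an unadjusted p of 0.05, and the median of the 10 was 0.14. Of all tested probes, 4.44% were higher and 4.27% lower at that threshold. Thrb, the corresponding receptor gene near Nr1d2, differed by -0.25 ± 0.17 on its brighter probe and by 0.05 on its second one. Med24, beside Thra, differed by 0.29 ± 0.17 on its brighter probe. A second Med24 probe differed by 0.50 ± 0.17 (limma, adjusted p = 0.51; unadjusted p = 0.018), and all KO arches lay above all WT arches on both. By brightest probes this separation held for 2 of the 10 neighbours, against 7.58% of all tested probes. Trpm6 was not tested.

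Genes were ranked by how closely their 6 levels, centred on their own mean, followed each receptor's, by the root mean square distance in log2 units. Nr1d1 itself deviated by 1.22. Its nearest genes were Enthd1 at 0.33, Tmed5 at 0.41, Nr1d2 at 0.42, Rag1 at 0.48 and Ugt2b35 at 0.50, and 4 of these 5, all but Nr1d2, were well above background on 4 of the 6 arrays. For Nr1d2, which deviated by 1.41, the nearest were Nr1d1 at 0.44, Tcap at 0.48, Vmn2r70 at 0.59, Tef at 0.59 and Enthd1 at 0.60. Of these, Vmn2r70 was well above background on 5 of the 6 arrays and Enthd1 on 4. The 2 REV-ERBs were thus among each other's nearest 5, although Nr1d2 was represented by its dimmer probe as a neighbour of Nr1d1. Its own ranking used its brighter probe, the one listed on chromosome 19, whose true origin was not tested. The nearest mirror images were Lyz2 at 0.34, Gdf3 at 0.45 and Hal at 0.47 for Nr1d1, and Gdf3 at 0.54, Lyz2 at 0.55 and Foxs1 at 0.63 for Nr1d2. Rora, which deviated by 0.37, lay nearest to Casc1 at 0.04 and Pi15 at 0.05, with Elovl5 its nearest mirror image at 0.04. Rorb deviated by 0.13 and lay nearest to Hemk1 at 0.03. With 6 arrays these distances are descriptions.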

How the data were processed

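RNA of 6 aortic arches was hybridised in 1 colour (Cy3) to Agilent arrays, 1 mouse per array and 3 arrays per group. Per the file headers, Agilent Feature Extraction 10.7.3.1 produced the deposited intensity of each spot, on a linear scale, after removing background and spatial trends and filling low values with a surrogate. Arrays had not been normalized against each other. Values of the series table matched these to within 0.497%, and its array medians ran from 32.1 to 54.3.

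Each array had 62976 spots, of which 59305 were not controls. The 75th percentile of their signal ran from 238.9 to 407.2 and the share of spots well above background from 66.4% to 74.4%, both lowest in KO replicate 3, with 0 saturated spots. Values are log2 processed signals minus the array's 75th percentile. Testing covered the 38342 probes with signal well above background in every arch of either group, after 12 with outlier spots were set aside. The KO minus WT difference was fitted with lmFit and eBayes of limma 3.58.1 (R 4.3.3). Tests were two-sided, p-values were adjusted by Benjamini-Hochberg over the whole table, and 0.05 was the threshold. The fit was tested on simulated data. For other genes the brightest tested probe was used, and gene names are those in the files, updated through a RefSeq table. Where a gene was not well above background on any KO array, its fold is a bound: the WT mean over a KO mean in which each array contributes its detection limit (its dimmest signal flagged well above background) or the probe's own signal if higher.

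All arrays shared 1 slide and 1 scan. KO arrays lay in slide row 2 and WT arrays in row 1, and these cannot be told apart from the groups. The number of arrays limits the precision. No probe was named Mir21, so the donors' genotype was not checked here.

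Members, lists and alternatives were chosen with earlier results of these data known. The rule for named genes took every receptor probe, all tested RORE-driven clock genes, from each other list the members with an unadjusted p under 0.05 and the 2 others that differed most, and the 5 nearest genes and 3 nearest mirror images. Ncor1, Thra's second probe and the genes not tested were added by role. Lists are described by counts and medians, with no test. One gene of the lists is not reported here and was left out of its list's count and median. The 18 alternatives covered background correction, normalization, the filter, the series table, the variance model, array weights, a replicate block, each array left out, KO arrays 2 and 3 left out together, and the adipocyte covariate. Same-numbered arrays did not deviate together, with correlations of 0.12, 0.05 and -0.28, so the replicate numbers were not taken as pairs.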

Additional observations from a re-analysis of the deposited data

How the results depend on the processing

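One alternative keeps KO replicate 1 as the only KO array, so that all spread comes from the WT arrays and the lone array is assumed to vary like them. Both Nr1d2 probes stayed lower with KO marrow under all 18 alternatives, between -2.90 and -1.73 for the brighter and between -2.64 and -1.65 for the dimmer, at an unadjusted limma p under 0.05 in each and an adjusted p under 0.05 in 0 (adjusted p from 0.129 to 0.9999). Nr1d1 stayed lower too, between -2.25 and -0.75, with an unadjusted p under 0.05 in 13 of 18, the fit with 1 KO array among them. Its unadjusted limma p was 0.135 with the adipocyte covariate, 0.11 without moderation of the variance and 0.0501 with robust trended variances. Without WT replicate 2 it was 0.077, and without WT replicate 3 it was 0.051. The Nr1d1 difference was -0.75 without KO arrays 2 and 3. Leaving out 1 array gave -2.25 (without KO replicate 1) to -0.91 (without KO replicate 2). Rora ranged from 0.30 to 0.70 when 1 array was left out, was 0.08 with the adipocyte covariate and reversed to -0.0188 without KO arrays 2 and 3. Its dimmer probe reversed to 0.19 with normexp background. The dimmer Rorb probe reversed to 0.0456 with normexp background and 0.0482 without KO arrays 2 and 3, and ran from -0.0934 to 0.0696 when 1 array was left out (0.0696 without KO replicate 2, 0.00928 without WT replicate 3).

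Without KO arrays 2 and 3, differences reversed for Ppargc1a (1.63), Ppargc1b (0.79), Alas1 (0.53), Hmox1 (-0.17), Pck1 (1.06) and Ucp1 (0.26). With the adipocyte covariate they reversed for Ppargc1a (0.82), Ppargc1b (0.29), Alas1 (0.35) and Pck1 (0.21), and Ucp1 was -0.36 and Elovl3 -1.35. Ppargc1a, Pck1, Ucp1 and Elovl3 are themselves in that covariate, which in part fixes their outcome. Elovl3 ran from -4.69 (without KO replicate 1) to -2.28 (without KO replicate 3) when 1 array was left out. When 1 array was left out, Ppargc1a ran from -1.77 to 0.0234 (without KO replicate 3) and Hmox1 from -0.42 (without KO replicate 2) to 1.16. The probes past the adjusted test, 1 as reported, numbered 4 with normexp background, 2 each with the array median, robust trended variances and array weights, 6 without KO arrays 2 and 3, and 1 to 3 when 1 array was left out (3 without KO replicate 2). There were 0 among probes well above background on all arrays, where Ciart is not tested, and 0 without moderation of the variance, where Ciart had an adjusted p of 0.13 (limma's least-squares fit alone). With normexp background, where Npas2 was 1.33, Ciart -1.95, Per3 -1.004 and Ppargc1b -0.37, Dbp (limma, adjusted p = 0.049) and Tef (0.021) also passed. The number at an unadjusted p under 0.05, 3339 as reported, was 7163 with array weights, 6858 without KO replicate 1 and 1566 without WT replicate 3. The causes were not tested, apart from the filter.

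With the replicate number as a block, Nr1d1 differed by -1.75 (limma, adjusted p = 0.61) and Nr1d2 by -2.43 and -2.25 (0.51 and 0.48), and the block changed no adjusted call among the named genes. At an unadjusted limma p under 0.05, Hdac3 and Crebbp passed only without the block and Ucp1 only with it. No slide or scan block was run, since all arrays shared both.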
